A study of Caenorhabditis elegans with 2 samples.

Results

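Binding of the ETS family transcription factor ETS-7 was examined at 10 genes that encode RNA-binding proteins of the maternal germ plasm in *Caenorhabditis elegans*. The genes were listed by symbol for their known roles, with earlier results of these data known: *mex-1*, *mex-3*, *mex-5*, *mex-6*, *pie-1*, *pos-1*, *oma-1*, *oma-2*, *spn-4* and *gld-1*. They are 10 of 19973 nuclear protein-coding genes. A region was placed at a gene when its summit, the position of highest signal, lay between 2000 bp upstream of the annotated gene start and the 3' end of the gene, a span called the gene window below. This rule found 8 of the 11626 regions listed for the pooled replicates, and 2 of the 595 regions of the authors' optimal list, which passed their reproducibility threshold. It also found 7 of the 16227 regions of replicate 3 and 14 of the 15533 regions of replicate 4.

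The data are chromatin immunoprecipitation followed by sequencing (ChIP-seq), in which DNA fragments bound by a protein are recovered with an antibody. Whole early embryos of hermaphrodite strain OP487, taken 3 hours after egg bleaching, formed 1 group of 2 biological replicates, numbered 3 and 4. Both carry ETS-7 with a C-terminal GFP-FLAG tag from a stable transgene, which an anti-GFP antibody recognises. The values therefore describe the tagged protein in a mixture of all cells of the embryo, and no second strain or condition is compared here. The deposited lists give each region a signal but carry no counts of reads, and sequencing depth is therefore unknown. Signal ran from 27.5 to 941 in the pooled list, from 14.7 to 457 in replicate 3 and from 12.9 to 494 in replicate 4. The pooled and replicate lists were deposited as peaks together with background, to be passed to the reproducibility analysis, so an entry in them is not by itself a called binding site. In the pooled list, whose −log10 q runs from 0.0179 to 1.99, both optimal regions at the 10 genes had a −log10 q of 1.99. The other 6 pooled regions had lower values, 0.61 and 0.60 for those of *mex-3* and 0.0281 to 0.0754 for the second regions of *mex-1* and *spn-4* and those of *gld-1* and *pos-1*, where 0 stands for a q of 1. A gene without a region in a list is one where nothing above those lower ends was listed, which does not show absence of binding. Pooled signals run well above those of either replicate, so signals were compared within a list or between the replicates.

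The first divisions of the worm embryo take place with RNA and protein made in the mother's germ line, and translation and decay of these RNAs set up the first differences between cells. Cytoplasm rich in P granules, the germ plasm, passes at each of these divisions to the cell of the future germ line and marks it. The proteins studied here bind RNA through CCCH zinc fingers (MEX-1, MEX-5, MEX-6, PIE-1, POS-1, OMA-1 and OMA-2), KH-type domains (MEX-3 and GLD-1) or an RNA recognition motif (SPN-4).

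The sequences at the summits of the 2 optimal regions are shown because these were the strongest regions at any of the 10 genes. Each is given on the forward strand of ce11, from 100 bp before to 100 bp after the pooled summit, and capitals mark GGAA on either strand, the base core recognised by ETS DNA-binding domains. Neither stretch overlaps an annotated exon of a protein-coding gene. The first lies at II:11967623-11967823 and the second at V:6785230-6785430.
*mex-1*: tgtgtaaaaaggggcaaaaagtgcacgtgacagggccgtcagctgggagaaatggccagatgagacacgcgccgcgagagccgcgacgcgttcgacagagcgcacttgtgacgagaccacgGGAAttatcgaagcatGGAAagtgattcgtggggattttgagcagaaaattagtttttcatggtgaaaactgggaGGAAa
*spn-4*: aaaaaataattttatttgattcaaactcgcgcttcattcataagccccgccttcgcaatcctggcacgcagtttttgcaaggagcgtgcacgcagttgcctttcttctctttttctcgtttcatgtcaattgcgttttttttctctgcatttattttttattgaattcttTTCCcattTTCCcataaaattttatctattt

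The strongest region was at *mex-1* (WBGene00003228, II:11968637-11972330, forward strand), which encodes a CCCH zinc finger protein needed for the germ plasm and its factors to reach the correct early cells. The region at II:11967483-11967962 had a signal of 80.3 in replicate 3 and 72.1 in replicate 4, or 76.2 ± 5.82 (SD, n = 2), and 154.6 in the pooled list. It stood at rank 120 in replicate 3, rank 149 in replicate 4 and rank 125 of the pooled list. The summits of the replicates lay 1 bp apart, so both the height and the position were close between them. The pooled summit was 914 bp upstream of the *mex-1* start and intergenic.

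This region is not placed at *mex-1* alone. The summit was nearer to the 5' end of *W03C9.5*, at 179 bp, and to that of *rab-7*, at 792 bp, both on the reverse strand. *rab-7* encodes a small GTPase of late endosomes. The summit thus lies upstream of 3 genes that point away from it in both directions, and the data do not assign the region to one of them. The region itself overlaps the 5' end of *W03C9.5*, and the 5' end of *rab-7* lies within *W03C9.5*. A weaker pooled region, II:11968701-11969180, had its summit in a coding exon of *mex-1*, 304 bp after the gene start. Its signal was 30.7 in the pooled list and 19.2 in replicate 3, and no region of replicate 4 overlapped it.

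The second optimal region was at *spn-4* (WBGene00004984, V:6783187-6784903, reverse strand), which encodes an RNA recognition motif protein that controls translation of maternal RNAs together with POS-1. The region at V:6785090-6785569 had a signal of 40.1 in replicate 3 and 46.2 in replicate 4, or 43.2 ± 4.33 (SD, n = 2), and 91.02 in the pooled list. It stood at rank 693 in replicate 3, rank 474 in replicate 4 and rank 441 of the pooled list. The summits of the replicates lay 25 bp apart. The lowest pooled signal in the optimal list was 80.7, and the *spn-4* region had 1.13 times and the *mex-1* region 1.92 times that signal. Among the 595 regions of highest signal in a single replicate, the *mex-1* region was present for both, and the *spn-4* region for replicate 4 but not for replicate 3.

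The *spn-4* summit was intergenic, 427 bp upstream of the *spn-4* start and 121 bp upstream of *spe-39*, which is transcribed the other way and encodes a protein of vesicle traffic needed in sperm formation. The promoter is thus divergent, and *spe-39* has the nearer 5' end. A second pooled region, V:6785292-6785771, overlapped the first and had its summit 629 bp upstream of *spn-4*, inside the first part of the *spe-39* coding sequence and 81 bp after the start of that gene. Its signals were 17.5 in replicate 3, 13.7 in replicate 4 and 29.9 in the pooled list, near the lower ends of the lists.

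**Figure D1:**
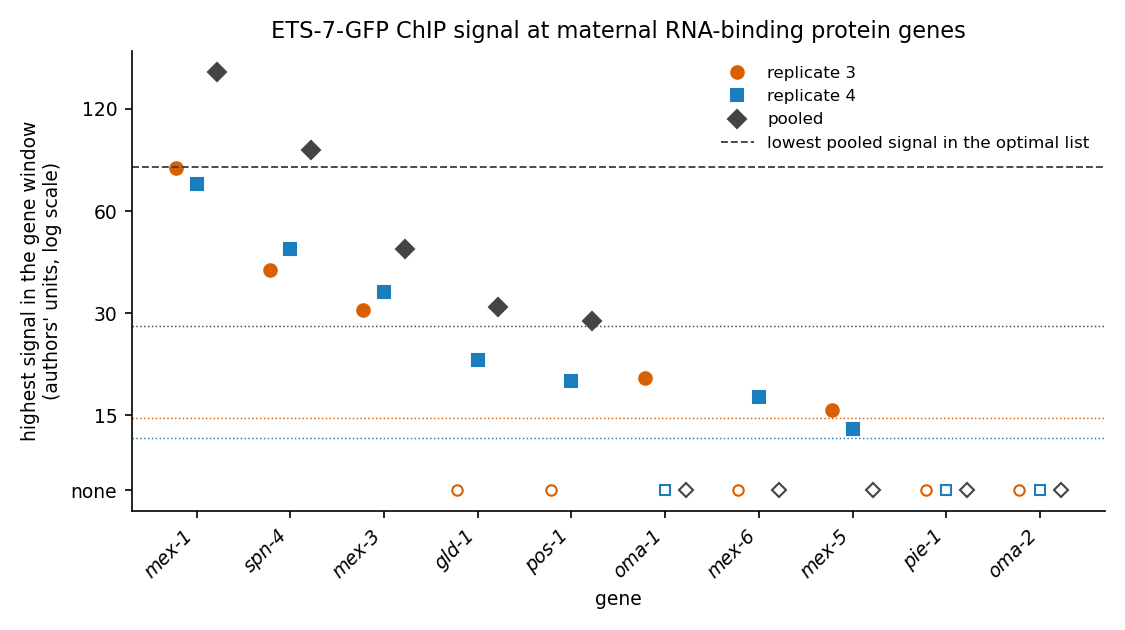
Highest signal in each gene window (y axis, authors' units, log scale) in replicate 3, replicate 4 and the pooled list, for the 10 genes; open symbols stand for no region in that list and dotted lines for the lowest signal of each list. The pooled signals of mex-1 (154.6) and spn-4 (91.02) lie above the dashed line at 80.7, the lowest pooled signal in the optimal list, and those of the other genes lie below it.

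*mex-3* encodes a KH domain protein that blocks translation of the caudal homolog *pal-1* in the anterior of the embryo. It was the third of the genes by signal and differed from the first 2 in where its regions lay, since both pooled summits were inside the gene. The region at I:128399-128878, with its summit in an intron 1354 bp after the gene start, had signals of 30.7 in replicate 3 and 24.3 in replicate 4, or 27.5 ± 4.48 (SD, n = 2), and 46.4 in the pooled list. The summits of the replicates lay 95 bp apart there, and that of replicate 4 fell in the neighbouring coding exon. The region at I:131958-132437, with its summit in a coding exon 4913 bp after the start, had a signal of 34.5 in replicate 4, at rank 1002, and no region of replicate 3 overlapped it. Its pooled signal was 46.2. The 2 pooled regions thus had nearly equal pooled signals, at ranks 2527 and 2554, although one was listed in both replicates and the other in replicate 4 alone. No *mex-3* region was in the optimal list.

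*gld-1* and *pos-1* had 1 weak pooled region each, listed in replicate 4 and not in replicate 3. GLD-1 is a translational repressor of the adult germ line. Its region at I:7694997-7695476 had a summit 444 bp upstream of the gene start, a signal of 21.8 in replicate 4 at rank 3524, and 31.2 in the pooled list at rank 8029. The summit of replicate 4 was 181 bp nearer to the gene. POS-1 is a CCCH zinc finger protein that represses translation of the Notch receptor gene *glp-1* in posterior cells. Its region at V:8414558-8415037 had a summit in a coding exon, 712 bp after the start, with signals of 18.9 in replicate 4 and 28.4 in the pooled list, at rank 10640 of 11626. This summit also lay in the window of *vha-18*, a proton pump subunit gene on the reverse strand, 1316 bp upstream of its 5' end. Both pooled signals were below the median of the pooled list, 34.9.

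The remaining genes had no pooled region in their windows. They include both pairs of close paralogs, *mex-5* and *mex-6*, whose products set up the anterior to posterior differences of germ plasm proteins, and *oma-1* and *oma-2*, whose products act in oocyte maturation. In *mex-5*, replicate 3 had a region of signal 15.5 with its summit 359 bp upstream of the gene start, and replicate 4 had one of 13.6 with its summit 334 bp after the start. In *mex-6*, replicate 4 had regions of 17.0 and 15.4, with summits 187 bp upstream of the start and 1323 bp after it, and replicate 3 had none. In *oma-1*, replicate 3 had a region of 19.4 with its summit in a coding exon 1156 bp after the start, and replicate 4 had none. No list held a region in the window of *oma-2* or of *pie-1*, which encodes the zinc finger protein that represses transcription in early germline cells. Of these paralogs *mex-5* had a weak region in each replicate, at different positions, *mex-6* and *oma-1* had weak regions in a single replicate and *oma-2* had none.

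**Figure D2:**
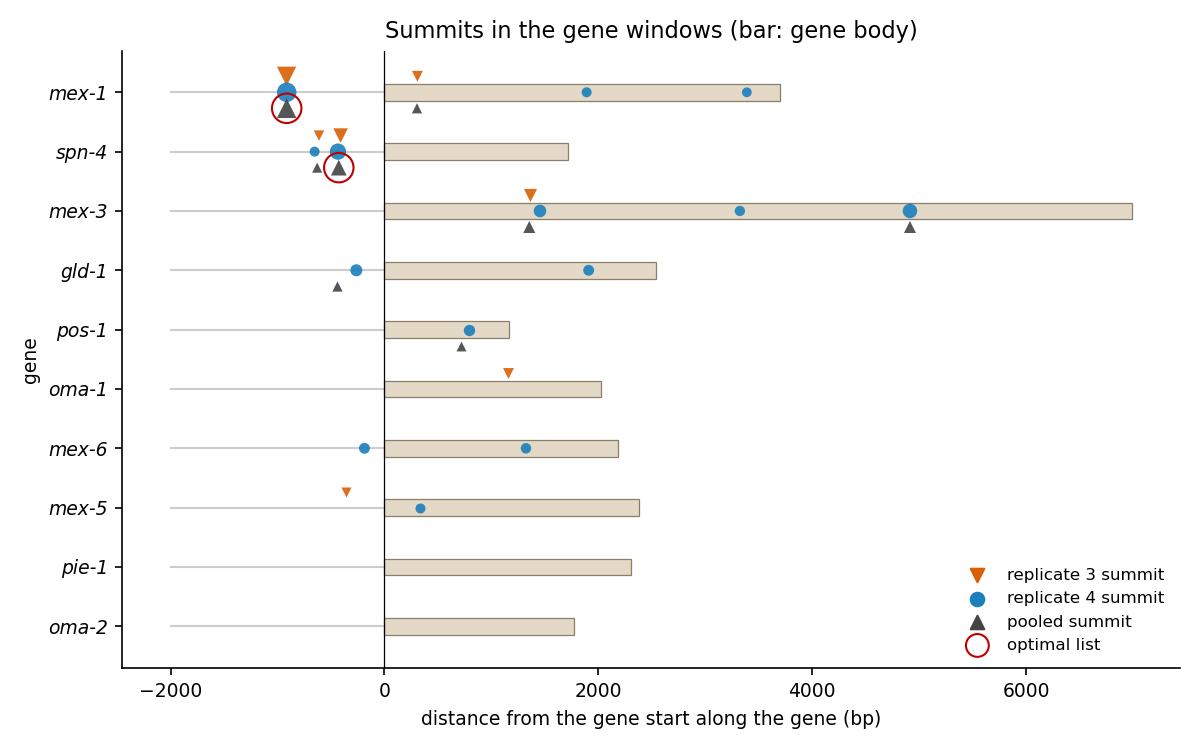
Summits of regions in the window of each gene, by distance from the gene start along the direction of transcription (x axis, bp), with the gene body as a bar and larger symbols for higher signal within a list. The 2 regions in the optimal list (red rings) lie 914 bp upstream of mex-1 and 427 bp upstream of spn-4, and pie-1 and oma-2 carry no summit.

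Regions of both replicates at the same place, meaning a pooled region overlapped by at least 1 bp by a region of each, were found at *mex-1*, *mex-3* and *spn-4*. Replicate 4 had 14 regions in the 10 windows against 7 in replicate 3, although its full list was the shorter. Over all nuclear protein-coding genes the mean number of regions per window was 0.867 in replicate 4 and 0.902 in replicate 3, whereas at the 10 genes it was 1.4 and 0.7. Of the 14 regions of replicate 4, 10 overlapped no region of replicate 3, with signals from 13.0 to 34.5. Of the 7 of replicate 3, 3 overlapped none of replicate 4, with signals from 15.5 to 19.4. In the whole lists 47.6% of nuclear regions of replicate 4 and 46.1% of those of replicate 3 overlapped a region of the other. Apart from the coding exon region of *mex-3*, at 34.5, the regions found in replicate 4 alone had signals of at most 21.8, such as those in the *mex-1* gene body at 1890 bp (13.9) and 3388 bp (13.0) after its start and in the *gld-1* 3' UTR (16.8). The difference in number between the replicates at these genes was not tested.

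Where both replicates had a region, the log2 ratio of replicate 3 to replicate 4 at the highest one was 0.16 for *mex-1*, 0.33 for *mex-3* and -0.20 for *spn-4* (median 0.16). Over the 6745 nuclear pooled regions found in both replicates the median was 0.14 (SD 0.52), and over the 576 nuclear optimal regions it was 0.01 (SD 0.48). The ratios at the 3 genes were thus all closer to 0 than 1 SD of these regions. Regions listed in a single replicate have no ratio and do not enter, such as the second *mex-3* region, with 34.5 in replicate 4 alone. By pooled signal *mex-1* came first and *spn-4* second, followed by *mex-3*, *gld-1* and *pos-1*. The signals of *mex-1*, *spn-4* and *mex-3* kept this order in each replicate, as 80.3, 40.1 and 30.7 in replicate 3 and as 72.1, 46.2 and 34.5 in replicate 4, the last at another *mex-3* region than in replicate 3. *mex-1* exceeded *spn-4* by more than the 1.39-fold that 1 SD of the optimal regions amounts to. The pooled regions of *gld-1* (31.2) and *pos-1* (28.4) were each matched in replicate 4 alone. No spread between replicates can therefore be set beside the difference of their pooled signals.

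**Figure D3:**
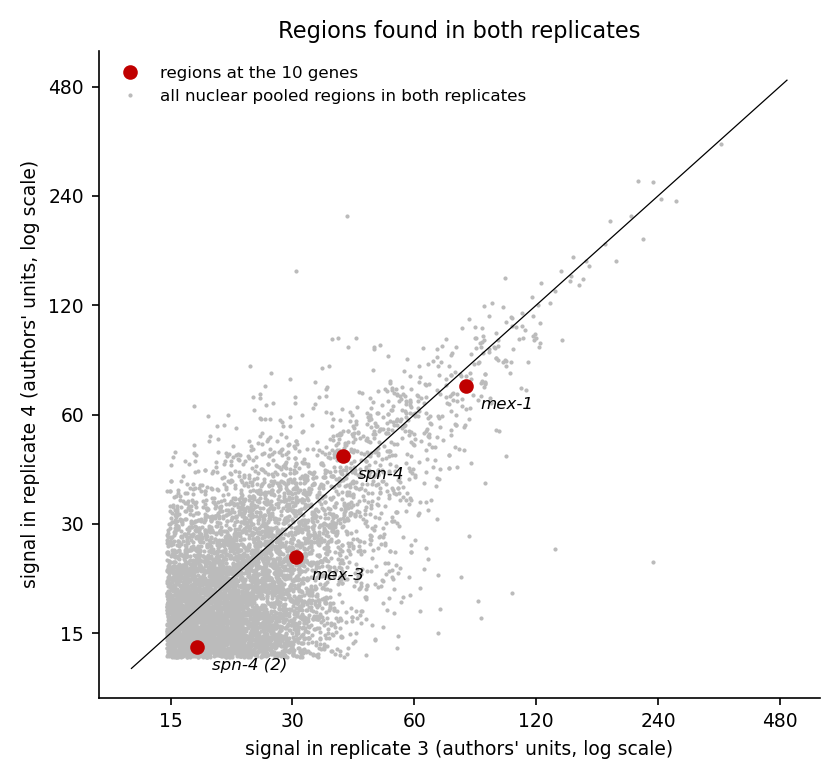
Signal in replicate 3 (x axis) against replicate 4 (y axis), both in the authors' units on log scales, for the nuclear pooled regions with a region in each replicate; the line marks equal signals and (2) the second region of a gene. The 4 regions at mex-1, spn-4 and mex-3 (red) lie close to the line, mex-1 at 80.3 and 72.1.

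These counts were set beside the same counts over all nuclear protein-coding genes. An optimal region was found at 2 of the 10 genes, against 3.37% of all genes. A pooled region was found at 5, against 40.0%, and one that both replicates overlapped at 3, against 25.8%. Replicate 3 had a region at 5 of the 10, against 50.2% of all genes, and replicate 4 at 7, against 48.7%. The pooled, replicate 3 and shared counts were near the background. The replicate 4 count lay above its background, but with 10 genes this difference was not tested. Its highest signals were at most 21.8 at *mex-5*, *mex-6*, *pos-1* and *gld-1*, and 34.5 to 72.1 at *mex-3*, *spn-4* and *mex-1*. The optimal count rests on 2 genes, both with a promoter region that another gene shares, and the list was drawn up with these results known, so no test was made. The windows of the 10 genes had a median length of 4244.5 bp, against 4027 bp over all genes. Among the 13385 genes with windows between 3169 bp and 8986 bp, the range of the 10, the share with an optimal region was 3.18% and that with a pooled region 39.1%.

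Among the 7993 nuclear protein-coding genes with a pooled region, ordered by the highest signal in the window, *mex-1* was at place 125 and *spn-4* at 495. *mex-3* was at place 2469, *gld-1* at 6152 and *pos-1* at 7508. The first 2 thus stood near the top of the genes with a pooled region, and the others were spread down to the lower end, where −log10 q is near 0. The genes whose highest region was most like that of *mex-1* in the log2 signals of the replicates were *plrg-1* (81.3 in replicate 3 and 71.8 in replicate 4), *C01C4.3* (82.8 and 75.4) and *Y92H12BR.2* (80.6 and 76.7). With 2 samples this says only that the heights were alike.

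**Figure D4:**
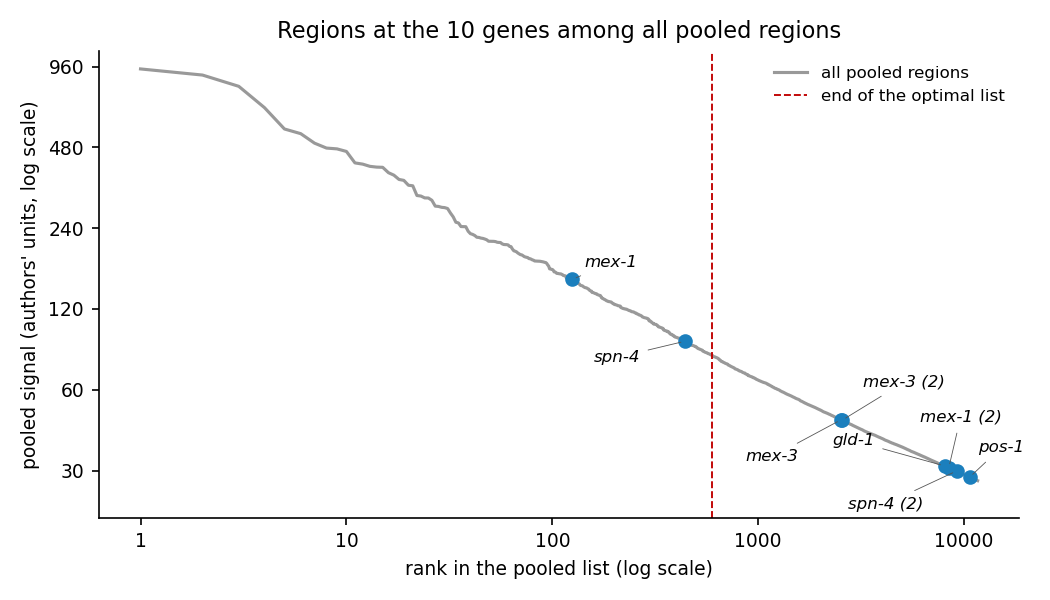
Pooled signal (y axis, authors' units, log scale) against rank in the pooled list (x axis, log scale) for all 11626 regions, with the 8 regions at the 10 genes as labelled points; (2) marks the second region of a gene. mex-1 at rank 125 and spn-4 at rank 441 lie left of the dashed line that ends the optimal list at 595, and the other regions lie at ranks 2527 and beyond.

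The places and sequences of the 8 pooled regions were also examined. For places, nearness to small RNA genes and single-copy sequence, no shares over the whole list are given beside the counts. Of the 8 summits, 4 were in coding exons, 3 were intergenic and 1 was in an intron, with 1 of those in a coding exon belonging to *spe-39*. None of the 8 lay within 500 bp of a gene for a small RNA (snoRNA, snRNA, tRNA, rRNA or miRNA). The nearest such gene was the snoRNA gene *T23G11.12*, 5940 bp from the *gld-1* summit, and the *mex-1* optimal summit was 6764 bp from the snoRNA gene *W03C9.9*. In 7 of the 8 regions every 31-base stretch occurred once in the genome, and in the second *mex-3* region 99.1% did, so these regions are almost wholly single-copy sequence.

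The hexamer CCGGAA, the GGAA core with the preceding bases that ETS factors are known to favour, was searched on both strands within 100 bp of each summit. It was present at 2 of the 8 pooled regions, against 14.1% of the 11607 nuclear pooled regions, and at neither optimal region, against 16.1% of the 576 nuclear optimal regions. The 2 were the second *mex-3* region, with the hexamer 25 bp from the summit, and the second *spn-4* region. The shorter GGAA was present at all 8, against 87.6% of the nuclear pooled regions. Within 100 bp of the summit the *mex-1* and *spn-4* optimal regions had GC contents of 51.7% and 35.3%, against medians of 46.8% over nuclear optimal and 41.3% over nuclear pooled regions. These are matches of letters and do not show where ETS-7 bound.

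The second *spn-4* region holds the hexamer on both strands, overlapping by 4 bases as a palindrome, shown here because it lies inside the *spn-4* optimal region as well, 195 bp from that region's summit. It is at V:6785522-6785529, in the *spe-39* coding sequence, and capitals mark it in the 30 bases at V:6785511-6785540, forward strand.
second *spn-4* region: cacttttgaacTTCCGGAAgacagttattg
When whole regions were searched in place of the bases near the summit, 24.5% of the nuclear pooled regions held CCGGAA. Of the nuclear optimal regions 23.8% held it, and the optimal region at *mex-1* held none over its full length.

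Other genes that act with these proteins were counted by the same window rule. Over all nuclear protein-coding genes, 3.37% had an optimal region and 40.0% a pooled region. The windows run to the 3' end, so long genes have long windows. The related lists were not set beside genes of like window length, and their shares were not tested. Of 36 genes for other germline RNA-binding proteins and P granule components, 1 had an optimal region and 19 a pooled region, which is 2.78% and 52.8%. The optimal one was *atx-2*, the worm ataxin-2, an RNA-binding protein of the germ line, at III:10461194-10461413, with signals of 119.6 in replicate 3 and 97.3 in replicate 4 and its summit 71 bp upstream of the gene start. This is higher than *mex-1* in both replicates. Of 18 genes of polarity and egg activation, 2 had an optimal region and 13 a pooled region, 11.1% and 72.2%. These were *egg-5*, which encodes a pseudophosphatase that holds back the kinase MBK-2, and *mbk-2*, whose kinase phosphorylates several of the proteins studied here at the start of embryonic development. The *egg-5* region had signals of 73.0 and 81.7 in replicates 3 and 4. Its summit was 697 bp upstream of the gene, within 500 bp of the snRNA gene *sls-2.4*. The *mbk-2* region, in an intron at IV:13029670-13030149, had signals of 48.4 and 55.9 in replicates 3 and 4. Its summit was 20752 bp after the *mbk-2* start, and the nearest 5' end was that of another gene, *F49E11.2*.

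The last list held 15 targets of these proteins, such as *glp-1*, *pal-1*, *nos-2* and *zif-1*, and genes of early cell fate. Of these, 1 had an optimal region and 8 a pooled region, 6.67% and 53.3%, against 3.37% and 40.0% of all genes. The optimal one was at *tbx-38*, a T-box factor gene of early anterior cells, with signals of 48.0 in replicate 3 and 44.4 in replicate 4 and its summit 70 bp upstream of the gene. *zif-1* and *nos-2* are counted in a second list too. Across the 4 lists each optimal count was 2 or fewer, and the median of the highest pooled signals was 46.4 at the 5 of the 10 genes with a pooled region, against 35.9, 50.3 and 45.7 in the other lists and 37.6 over all genes with a pooled region.

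**Figure D5:**
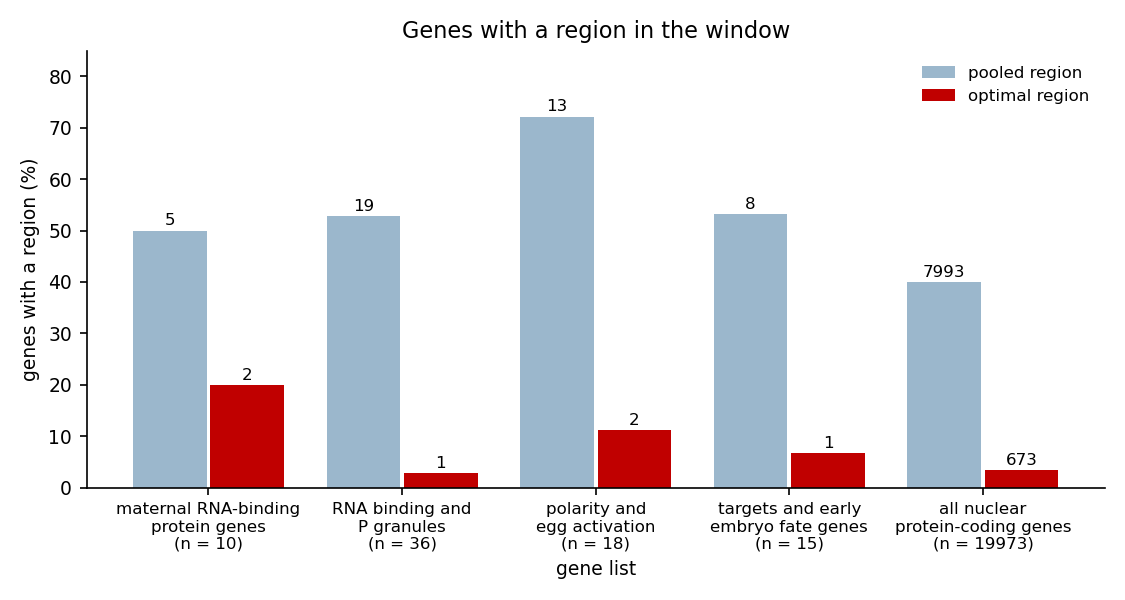
Share of genes (y axis, percent) with a pooled or an optimal region in the window, for the 10 genes, the 3 lists of related genes and all nuclear protein-coding genes; numbers above the bars are counts of genes. Of the 10 genes 5 have a pooled and 2 an optimal region, against 40.0% and 3.37% of all genes.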

How the data were processed

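Whole early embryos of 1 group (2 biological replicates) were analysed from region lists in narrowPeak format. Per the deposited file descriptions, the authors listed peaks and background from alignments of each replicate, and of both pooled, with a control, as input for analysis of the irreproducible discovery rate, and derived the optimal list from these. Aligner, caller and versions: not given in the sources used here. The signal per region was used as deposited, with its scaling unknown. The deposited −log10 q values were not used to rank, since many regions share the highest value, 1.99, but are given for the pooled regions at the 10 genes. No q threshold was applied to the pooled and replicate lists. Depth is unknown, so no counting intervals are given and the spread of the replicates is the error.

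Coordinates are ce11, which is WBcel235, and 1-based. Genes came from Ensembl release 115, sequence from the RefSeq copy of the same assembly. The ce10 lists could not be placed on genes and served only for the length of their optimal list. Replicate regions were matched to pooled regions by at least 1 bp of overlap, taking the nearest summit. Summits of regions, matched or not, were placed in transcripts with coding exons first, then UTRs, then introns. Shared genes are those whose own window holds the summit.

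The 10 genes, the related lists and the alternatives were chosen with earlier results of these data known. With 1 group of 2 samples no test was run: counts stand beside all nuclear protein-coding genes. The text names the 10 genes, genes sharing their regions, up to 3 genes per related list with an optimal region and the 3 genes nearest to *mex-1* in signal. Python 3.11.15, NumPy 2.4.6, pandas 2.3.3 and matplotlib 3.10.9 were used, and placement, matching and motif search were tested on simulated data.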

Additional observations from a re-analysis of the deposited data

How the results depend on the processing

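Counts changed with the window and the list. The count of genes with an optimal region, and of such regions, was 2 as reported and 1 with 500 bp upstream, which drops *mex-1*, or when only the stronger optimal regions, above the median of that list, were kept, which drops *spn-4*; with 1 replicate left out, taking as many top regions of the other, both ran from 1 to 2, the lower without replicate 4, where *spn-4* is lost. From 2000 bp upstream to 200 bp past the start, 3 genes had a pooled region (5 as reported) and these windows held 4 such regions (8 as reported), against 27.3% of all genes with one. With 1 replicate left out, 4 to 6 genes had a region in a list of pooled length, against 40.2% to 40.3% of all genes. There were 6 to 10 such regions. The share of all genes with an optimal region was 2.25% with 500 bp upstream. It was 3.37% without replicate 3 and 3.38% without replicate 4. CCGGAA near the summit was found at 2 pooled regions, ACCGGAAG at 0 and GGAA at 8. Of all nuclear pooled regions 14.1% held CCGGAA, 3.32% ACCGGAAG and 87.6% GGAA within 100 bp of the summit. Places shared by the replicates ran from 2 to 3 genes (3 as reported). The median log2 ratio was 0.16 as reported and 0.24 with all pooled regions of the genes. With signals divided by the median of their list it was -0.02, so its sign changed. The length of the ce10 optimal list (2 genes) and the search of whole regions (3 regions with CCGGAA, 2 of them sharing 1 place at *spn-4*) were added after the data were seen. No paired analysis was possible because the samples form 1 group. Counts from the pooled list include regions of low −log10 q, which was at most 0.61 in all but the 2 optimal regions.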

Other observations

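Several of the genes without a pooled region in their window had one just outside it, at the next gene. Downstream of *oma-1*, a region at IV:8891120-8891599 had its summit 361 bp past the 3' end and 102 bp from the 5' end of *spr-2*, with signals of 32.7 in replicate 3, 30.7 in replicate 4 and 62.5 in the pooled list, at rank 1132. Downstream of *pie-1*, a region at III:12429633-12430112 had its summit 678 bp past the 3' end and 244 bp from the 5' end of *snr-6*, which encodes a core protein of spliceosomal snRNPs. Its signals were 28.5 in replicate 3, 23.7 in replicate 4 and 55.3 in the pooled list, at rank 1559. Both regions were higher in the pooled list than those of *mex-3*, *gld-1* and *pos-1*, and both replicates held them.

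The nearest pooled region to *mex-5* was 381 bp past its 3' end, in an intron of *W02A2.8*, with signals of 17.9 in replicate 3 and 16.7 in replicate 4. That of *oma-2* was 3045 bp upstream of its window, in a coding exon of *F43H9.3*, with 19.8 and 20.6 in replicates 3 and 4. That of *mex-6* was 15065 bp upstream of its window, with a pooled signal of 28.7 and no overlapping region in either replicate. The gene starts of the 10 genes in the RefSeq annotation differed from those used here by 1 bp at most.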
